A study of Mus musculus with 2 samples.

Results

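Translation factors are the proteins that load ribosomes onto mRNA and drive them along it. Initiation factors (eIF, genes named Eif) bring the initiator tRNA, the mRNA cap and the ribosomal subunits together at a start codon. Elongation factors (eEF, genes named Eef) then deliver each aminoacyl-tRNA and move the ribosome by a codon. In the developing cortex, control of initiation through mTORC1, through the eIF4E-binding proteins and through phosphorylation of eIF2 is known to affect how progenitors form neurons. The genes described here are those of the deposited table whose symbol begins with Eif followed by a digit from 1 to 6, or with Eef followed by 1 or 2. Eif2s3x and Eif2s3y, which encode the gamma subunit of eIF2 on the sex chromosomes, were left out. The rule took 60 of the 15643 listed genes, of which 59 are annotated as protein-coding in GENCODE M21 and 1, Eif4a-ps4, is a pseudogene by its name.

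RNA sequencing was done on GFP-positive cells from CD-1 mouse embryos, labelled as neural stem cells, in 2 libraries. The Rbm3 knockdown library came from embryonic cortex electroporated in utero at embryonic day 13 with a plasmid against Rbm3, a cold-inducible RNA-binding protein. The control library came from cortex electroporated at embryonic day 13 with a control plasmid. In both groups maternal hypothermia was induced at embryonic day 14 and the GFP-positive cells were sorted at embryonic day 15, so neither group was kept at normal temperature. Neither the number of embryos behind a library nor the knockdown sequence is stated in the labels. Each group had 1 library, so no difference below has a replicate check or a test, and each is a difference between 2 libraries.

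Reads assigned to genes numbered 16823612 for the knockdown and 17757555 for the control, and the median gene had 385 and 468. Rbm3 itself had 2397 reads in the knockdown and 3242 in the control library, a ratio of 0.841 (95% counting interval 0.798 to 0.887), so the name knockdown rests on the label. Neural stem cell markers were present in both libraries, and 8 of 9 had a log2 ratio of knockdown over control below 0, with a median of -0.58. Their summed level was 1200 CPM in the knockdown and 2131 CPM in the control library (CPM, read counts scaled for library size). The 6 cortical neuron markers summed to 6452 and 4777 CPM in the knockdown and control libraries, and the 4 intermediate progenitor markers to 818 and 474 CPM. Meningeal fibroblast markers, 6 in number, summed to 47.5 CPM in the knockdown and 627 CPM in the control library. The 5 choroid plexus markers summed to 2.90 CPM in the knockdown and 619 CPM in the control library, and the 6 endothelial markers to 103 and 260 CPM. The 6 erythroid markers summed to 65.5 CPM in the knockdown and 298 CPM in the control library, and the 6 microglia and macrophage markers to 102 and 106 CPM. Within the microglia and macrophage markers, Mrc1 had 89 reads in the knockdown and 532 in the control library, while Ptprc had 135 and 42. No marker was at 0 reads in either library. Marker levels of several cell types thus differed between the libraries, and their part in the translation factor values was not tested. In bulk RNA, fewer cells of a type and less RNA per cell cannot be told apart.

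Translation factor transcripts differed little between the libraries. Of the 60 genes, 58 were measured, meaning a mean of at least 5 CPM over both libraries, and 0 of these were past 2-fold in either direction. Over all 12140 measured genes, 2.13% were at least 2-fold higher and 4.51% at least 2-fold lower in the knockdown library. At a smaller threshold of 1.5-fold, 1 translation factor gene was higher, Eif4ebp2, beside 9.13% of all measured genes. At least 1.5-fold lower were 3, Eef1a2, Eef1b2 and Eif3j2, beside 12.4% of all measured genes. With a minimum of 20 CPM, 2 of 53 were lower, beside 6.62% of all genes kept, and 1 was higher, beside 8.99%. The median log2 ratio was -0.04, against 0.03 for all measured genes, and 52 of 58 (89.7%) lay within 0.5 of 0, against 71.5% of all measured genes. The family is more abundant than that background. Its median deposited RPKM was 29.8 in the knockdown and 33.0 in the control library, against 10.2 and 10.8 for all measured genes. The part of abundance in these shares was not tested. The genes listed with few reads stood apart: Eif4ebp1 and Eif4a-ps4, under 5 CPM on average, were both past 2-fold lower. Log2 ratios here use CPM scaled by TMM factors, which centre most genes near even, with 0.5 CPM added. Ratios and intervals of single genes use the scaled reads with nothing added, and the intervals (exact Clopper-Pearson, 95%) cover counting error only, and PCR copies are not independent molecules. By counting error alone, the intervals of 42 of the 58 measured translation factor genes left out a ratio of 1, beside 72.4% of all measured genes, which is the same share. They lay above 1 for 19 and below it for 23, beside 39.5% and 32.9% of all measured genes.

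**Figure D1:**
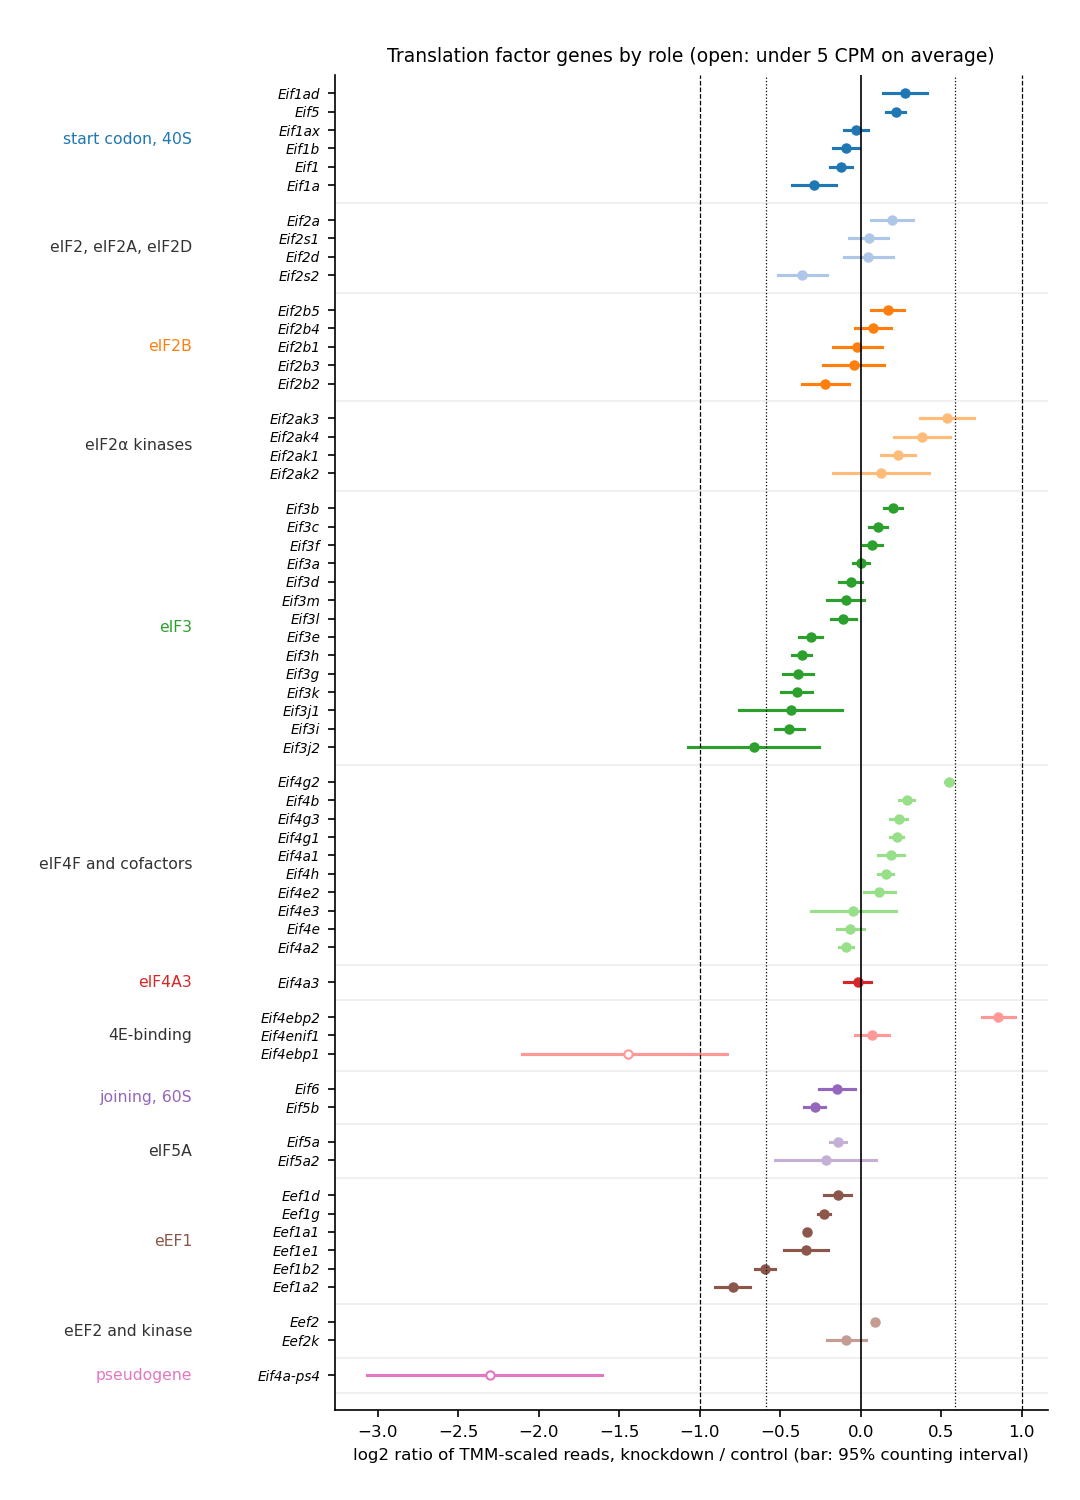
Log2 ratio of scaled reads, knockdown over control, for each of the 60 translation factor genes by role, with 95% counting intervals as bars. Dotted lines mark 1.5-fold and dashed lines 2-fold. Eif4ebp2 lies farthest to the right among the genes drawn, all 6 eEF1 genes lie left of 0, and the 2 genes under 5 CPM (open points) lie beyond 2-fold lower.

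Together the 60 genes took 1.76% of reads in the knockdown and 1.91% in the control library. Eef1a1, Eef2 and Eif4g2 supplied 51.5% of those reads in the knockdown and 51.0% in the control library. The initiation factor and eIF5A genes took 0.964% and 0.951% of reads in the knockdown and control libraries, and the elongation factor genes 0.792% and 0.957%. The level per length, in the authors' deposited RPKM, reached from 0.683 (Eif4a-ps4) to 1373 (Eef1a1) in the knockdown library and from 2.04 (Eif3j1) to 1862 (Eef1a1) in the control library. RPKM ratios between the libraries lie a constant 1.08-fold below the TMM-scaled ratios.

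Elongation factor eEF1 was lower throughout. eEF1A carries aminoacyl-tRNA to the ribosome, and eEF1B, made of the products of Eef1b2, Eef1d and Eef1g, recharges it with GTP. All 6 genes named Eef1 had a log2 ratio below 0, under each of the 3 other scalings and with the length correction too. Their median was -0.33. Eef1e1 is counted by its name, although its product sits in the multi-synthetase complex, and was at -0.08 with the length correction. The set is small, and 46.9% of all measured genes were below 0. Eef1a1 (chromosome 9, 78478449 to 78489151, minus strand, GRCm38), the form made in nearly all cells and the most abundant translation factor transcript here, had 57631 reads (1373 RPKM) in the knockdown and 82556 reads (1862 RPKM) in the control library. That is a ratio of 0.794 (0.786 to 0.803). Its processed pseudogenes can trade reads with it, and how the authors placed such reads is not given in the sources used here.

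Eef1a2 (chromosome 2, 181147653 to 181157014, minus strand), the paralog that replaces Eef1a1 in mature neurons and muscle, had the lowest log2 ratio of the measured translation factor genes, -0.79. It had 1059 reads (65.4 CPM) in the knockdown and 2089 reads (113 CPM) in the control library, 1.73-fold lower (1.61 to 1.87). Per length Eef1a2 stood at 30.2 RPKM in the knockdown and 56.4 RPKM in the control library, far under Eef1a1. The cortical neuron markers had a median log2 ratio of 0.72 beside this value, with 5 of 6 above 0. Eef1b2 (chromosome 1, 63176825 to 63180486), the exchange subunit, had 3420 reads in the knockdown and 5878 in the control library, 1.51-fold lower (1.45 to 1.58). The remaining subunits were closer to even, with log2 ratios of -0.23 for Eef1g, at 10040 and 13386 reads in the knockdown and control libraries, and -0.14 for Eef1d, at 1991 and 2502. Eef1e1, whose product sits in the multi-synthetase complex, had 751 reads in the knockdown and 1081 in the control library and a log2 ratio of -0.34.

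Elongation factor eEF2, which moves the ribosome along the mRNA, stood apart from eEF1. Eef2 (chromosome 10, 81176631 to 81182498) had 57264 reads (1098 RPKM) in the knockdown and 61159 reads (1110 RPKM) in the control library, a ratio of 1.07 (1.05 to 1.08) after TMM scaling. The log2 ratio of 0.09 was -0.02 with library totals, so its direction depends on the scaling. Eef1a1 thus had 1.25 times the level per length of Eef2 in the knockdown and 1.68 times in the control library. Eef2k, the kinase that switches eEF2 off, had 1040 reads in the knockdown and 1259 in the control library, a log2 ratio of -0.09.

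The genes of eIF4E-binding proteins went opposite ways. These small proteins, when mTORC1 is inactive, hold the cap-binding factor eIF4E away from its scaffold. Eif4ebp2 (chromosome 10, 61428491 to 61452661, minus strand), the main form of the mouse brain, had 1954 reads (121 CPM, 65.0 RPKM) in the knockdown and 1229 reads (66.7 CPM, 38.7 RPKM) in the control library. It was 1.81-fold higher (1.68 to 1.94), the highest ratio of the 58 measured genes, and its log2 ratio of 0.85 was 1.01 after the length correction, past 2-fold. Eif4ebp1 (chromosome 8, 27260329 to 27276674) went the other way, with 29 reads (1.79 CPM) in the knockdown and 90 reads (4.88 CPM) in the control library, 2.73-fold lower (1.78 to 4.30). It lies under the 5 CPM minimum, so it is not among the measured genes. Within each library, Eif4ebp1 stood at 0.0270 of the RPKM of Eif4ebp2 in the knockdown and 0.133 in the control library, a balance 4.93-fold lower (3.19 to 7.83) that needs no scaling between libraries. Eif4enif1, whose product carries eIF4E into the nucleus and represses bound mRNA, had 1382 reads in the knockdown and 1498 in the control library, a log2 ratio of 0.07. The authors' deposited table lists Eif4ebp2 at 0.86 on the log2 scale (p-value 0.195) and Eif4ebp1 at -1.44 (p-value 0.0532).

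The cap-binding complex eIF4F joins eIF4E, the helicase eIF4A and the scaffold eIF4G at the mRNA cap. Of its 10 measured genes, helicase cofactors included, 7 had a log2 ratio above 0, against 53.1% of all measured genes, and 0 passed 1.5-fold. The median of 0.17 was 0.0629 with library totals and 0.0497 with the length correction, under which Eif4e2 was below 0 (-0.06) and Eif4e3 above it (0.03). Eif4g2 (chromosome 7, 111067750 to 111083030, minus strand), a scaffold that lacks the eIF4E-binding site of its relatives, had 37288 reads (2301 CPM) in the knockdown and 29011 reads (1573 CPM) in the control library. Its ratio was 1.46 (1.44 to 1.49), the second highest after Eif4ebp2. The scaffolds that do bind eIF4E were nearer to even, with 10020 and 9756 reads for Eif4g1 in the knockdown and control libraries and 5483 and 5298 for Eif4g3. Their log2 ratios were 0.22 for Eif4g1 and 0.24 for Eif4g3, and 0.06 and 0.04 with the length correction. That of Eif4g2 was 0.55, and 0.36 with the length correction, under which Eif2ak3 was above it at 0.41. Eif4b and Eif4h, cofactors that stimulate the helicase, had log2 ratios of 0.29 (8062 and 7525 reads in the knockdown and control libraries) and 0.15 (7087 and 7247 reads).

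Cap-binding and helicase genes themselves were close to even. Eif4e had 2093 reads in the knockdown and 2489 in the control library, a log2 ratio of -0.06. Eif4e2, whose product binds caps and is known mainly as a repressor, had 1688 and 1774 reads in the knockdown and control libraries (0.11), and the scarcer Eif4e3 had 224 and 263 (-0.04). Among the helicases, Eif4a2 had 7775 reads in the knockdown and 9435 in the control library, a log2 ratio of -0.09, and Eif4a1 had 2377 and 2373, a log2 ratio of 0.19. Eif4a1 lay below Eif4a2 per length in both libraries, at 32.6 and 30.8 RPKM in the knockdown and control libraries against 86.5 and 99.4 RPKM. Eif4a3, the related helicase of the exon junction complex, had 2286 and 2636 reads in the knockdown and control libraries and a log2 ratio of -0.02. The pseudogene Eif4a-ps4 had 20 reads in the knockdown and 112 in the control library, 4.92-fold lower (3.04 to 8.36), while Eif4a1 was not lower. Among the 60 genes it was the 1 that met the submitters' own criteria, p under 0.05 with over 2-fold difference, beside 7.87% of all listed genes. The authors' deposited table gives it p = 0.00244 and FDR = 0.0938. Reads of near-identical eIF4A copies can be split between genes, so the value of Eif4a-ps4 is uncertain.

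Balance between paralogs is a within-library measure and does not depend on scaling, but the quotients below carry no length correction. Of 13 pairs compared, 6 had a counting interval for the quotient (knockdown balance over control balance) that left out 1, and the intervals cover no spread between embryos or sorts. After Eif4ebp1 over Eif4ebp2, the quotient farthest from 1 was that of Eef1a2 over Eef1a1, 0.726 (0.673 to 0.783). Next came Eif4g2 over Eif4g1 at 1.25 (1.21 to 1.29) and Eif4a2 over Eif4a1 at 0.823 (0.771 to 0.878). Pairs that stayed nearly even were Eif1b over Eif1 at 1.02 (0.950 to 1.10), Eif4g3 over Eif4g1 at 1.01 (0.961 to 1.06) and Eif4e3 over Eif4e at 1.01 (0.836 to 1.23). Eif4a3 over Eif4a1 was at 0.866 (0.799 to 0.938) and Eif4e2 over Eif4e at 1.13 (1.03 to 1.24). With the length correction, log2 ratios were 0.09 and 0.11 for Eif4a3 and Eif4a1, and -0.06 and -0.03 for Eif4e2 and Eif4e. For Eif1b and Eif1 they were 0.17 and -0.005.

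**Figure D2:**
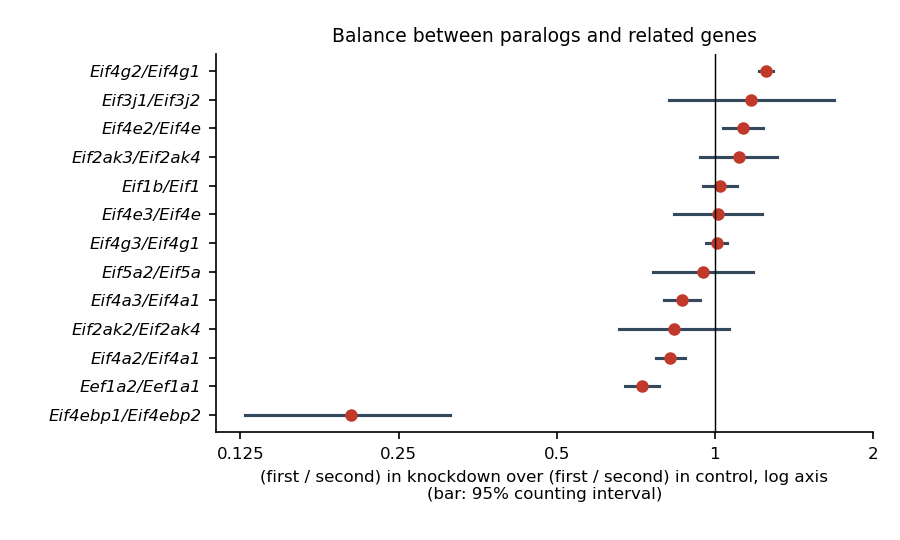
Quotient of within-library balances for 13 pairs of related translation factor genes, on a log axis, with 95% counting intervals as bars. Eif4ebp1 over Eif4ebp2 lies at 0.203, and the other 12 pairs lie between 0.726 (Eef1a2 over Eef1a1) and 1.25 (Eif4g2 over Eif4g1).

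eIF3 is the largest initiation factor, a scaffold on the small ribosomal subunit, with a core of 8 subunits (a, c, e, f, h, k, l and m) and further subunits around it. Of its 14 measured genes 10 had a log2 ratio below 0, beside 46.9% of all measured genes, and the median was -0.21. That median was -0.32 with library totals, -0.30 with upper-quartile factors, -0.11 with the length correction and -0.10 with a minimum of 20 CPM. The core subunits had a median of -0.10 and the other 6 genes a median of -0.40, which were -0.07 and -0.31 with the length correction. The other 6 were Eif3b (0.20), Eif3d (-0.06), Eif3g (-0.39), Eif3i (-0.44) and the scarce copies Eif3j1 (-0.41) and Eif3j2 (-0.61), which count the j subunit more than once. Below 0 were 13 of the 14 with library totals, 12 with upper-quartile factors and 9 with the length correction. Eif3a, Eif3c and Eif3f lay slightly above 0, with log2 ratios of 0.00, 0.11 and 0.07, and Eif3b, an organising subunit, was highest at 0.20 (4970 reads in the knockdown and 4921 in the control library).

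Several subunits were lower by a similar fold. Eif3h had 3755 reads in the knockdown and 5510 in the control library, 1.29-fold lower (1.24 to 1.34). Eif3g, a subunit that contacts mRNA, had 1534 reads in the knockdown and 2284 in the control library, 1.31-fold lower (1.23 to 1.40). Eif3k had 1485 and 2226 reads in the knockdown and control libraries, 1.32-fold lower (1.23 to 1.41), and Eif3i had 1719 and 2659, 1.36-fold lower (1.28 to 1.45). These are among the shorter genes except Eif3i, and after the length correction Eif3g, Eif3h and Eif3k each had a log2 ratio of -0.13 while Eif3i had -0.49. Eif3j1 and Eif3j2, near-identical copies for the loosely bound j subunit that can trade reads, were scarce. Eif3j1 had 138 reads in the knockdown and 212 in the control library, and Eif3j2 had 80 and 144, 1.58-fold lower (1.20 to 2.11).

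Subunit transcripts of eIF3 were not equal per length within a library, as the plot of their RPKM shows. The median subunit stood at 84.7 RPKM in the knockdown and 91.1 RPKM in the control library. Eif3h was highest, at 178 and 247 RPKM in the knockdown and control libraries, which is 2.10 and 2.71 times the median subunit. Eif3i and Eif3m were low among the single-copy subunits, at 0.325 and 0.302 of the median subunit in the knockdown and 0.443 and 0.323 in the control library.

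**Figure D3:**
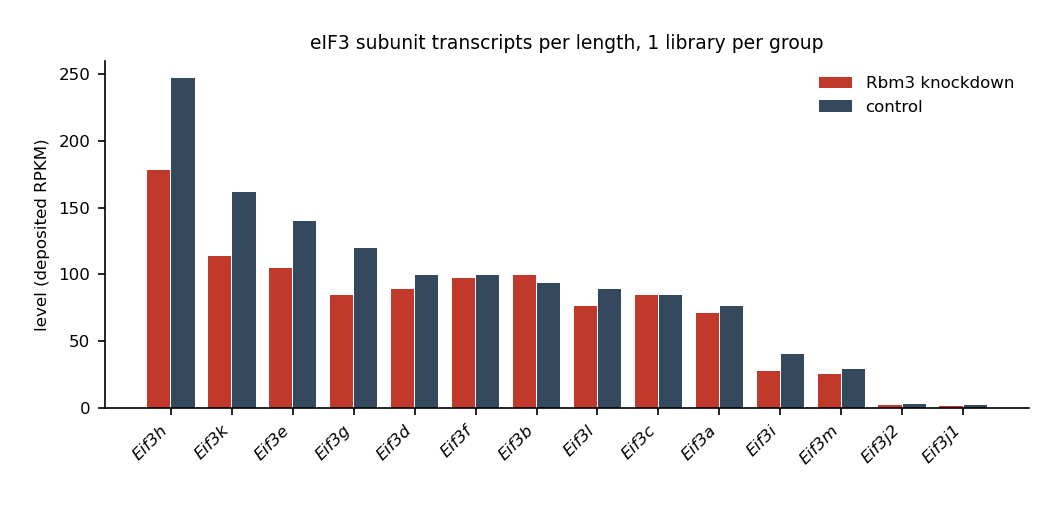
Deposited RPKM of the 14 eIF3 subunit genes in the knockdown library (left bar) and the control library (right bar), ordered by the control level, with 1 library per group and therefore no error bars. Eif3h, Eif3k, Eif3e and Eif3g stand lower in the knockdown library, and Eif3c is level at 84.7 RPKM in both.

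The kinases that phosphorylate eIF2 and so slow initiation under stress all lay above 0. This held for 4 of 4 genes under each of the 3 other scalings and with the length correction, and none reached 1.5-fold. The median was 0.30, which was 0.16 after that correction and 0.20 with library totals. The set is small, and 53.1% of all measured genes were above 0. Eif2ak3, which encodes PERK, the kinase that senses unfolded proteins in the endoplasmic reticulum, had 659 reads in the knockdown and 518 in the control library, a ratio of 1.45 (1.29 to 1.63). Eif2ak4, which encodes GCN2, the sensor of uncharged tRNA, had 588 reads in the knockdown and 513 in the control library, a ratio of 1.30 (1.16 to 1.47). Eif2ak1, for the haem-regulated kinase HRI, had 1430 and 1385 reads in the knockdown and control libraries, a ratio of 1.17 (1.09 to 1.27). Eif2ak2 encodes PKR, which binds double-stranded RNA and is itself inducible by interferon. It had 187 reads in the knockdown and 195 in the control library, a ratio of 1.09 (0.888 to 1.34). The interferon-stimulated genes Oasl2 and Irf7, named after their values were seen, had ratios of 6.24 (4.63 to 8.55) and 3.76 (2.82 to 5.06). No list of interferon-stimulated genes was counted.

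The substrate and its exchange factor were close to even. eIF2 delivers the initiator tRNA, and its alpha subunit gene Eif2s1, the target of those kinases, had 1080 reads in the knockdown and 1188 in the control library, a log2 ratio of 0.05. Eif2s2, for the beta subunit, had 592 and 866 reads in the knockdown and control libraries, 1.29-fold lower (1.16 to 1.43). Eif2a and Eif2d, which encode alternative tRNA carriers, had log2 ratios of 0.19 and 0.05. The 5 genes of eIF2B, which reloads eIF2 with GTP, ran from -0.22 (Eif2b2) to 0.17 (Eif2b5), with a median of -0.02. Eif2b4, the most abundant of them per length, had 1252 reads in the knockdown and 1349 in the control library.

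Genes for start codon selection and other factors of the small (40S) ribosomal subunit, called start codon selection below, went both ways. They ran from -0.29 (Eif1a) to 0.27 (Eif1ad). Eif1, the guardian of start codon fidelity, had 3042 reads in the knockdown and 3763 in the control library, a log2 ratio of -0.12. Its paralog Eif1b had 2291 and 2772 reads in the knockdown and control libraries and was the most abundant gene of this role per length, at 148 and 170 RPKM. Eif5, which triggers GTP hydrolysis on eIF2 and can compete with Eif1 at the ribosome, had a log2 ratio of 0.22. Eif5b, which joins the ribosomal subunits, had 3030 reads in the knockdown and 4205 in the control library, 1.22-fold lower (1.16 to 1.28), and Eif6, which keeps the large subunit apart until it is needed, had a log2 ratio of -0.15. Eif5a, the hypusine-bearing factor that helps ribosomes past difficult peptide bonds, had 5997 and 7529 reads in the knockdown and control libraries, and its paralog Eif5a2 had 152 and 201, with log2 ratios of -0.14 and -0.21.

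Gene length went with the log2 ratio in this family. Across the 58 measured genes, Spearman's rho between the log2 ratio and relative length (reads per RPKM) was 0.42, and across all 12140 measured genes it was 0.25. With mean CPM in place of length, rho was 0.12 across the 58 and 0.30 across all measured genes. Across the 14 eIF3 genes rho was 0.80 with mean CPM and 0.23 with relative length. The points share both libraries, so these are descriptions with no p-value. Of the 29 longer translation factor genes 19 had a log2 ratio above 0, with a median of 0.09, and of the 29 shorter ones 6, with a median of -0.12. After a lowess curve over all measured genes had been subtracted, rho with relative length was -0.03 for the family. The medians of the longer and shorter genes after this step were 0.01 and -0.03. Eef1b2 and Eif3j2 were then within 1.5-fold, Eef1a2 was still past it at -0.67, and Eif4ebp2 was at 1.01. The parts of length and of level in these ratios were not tested further.

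**Figure D4:**
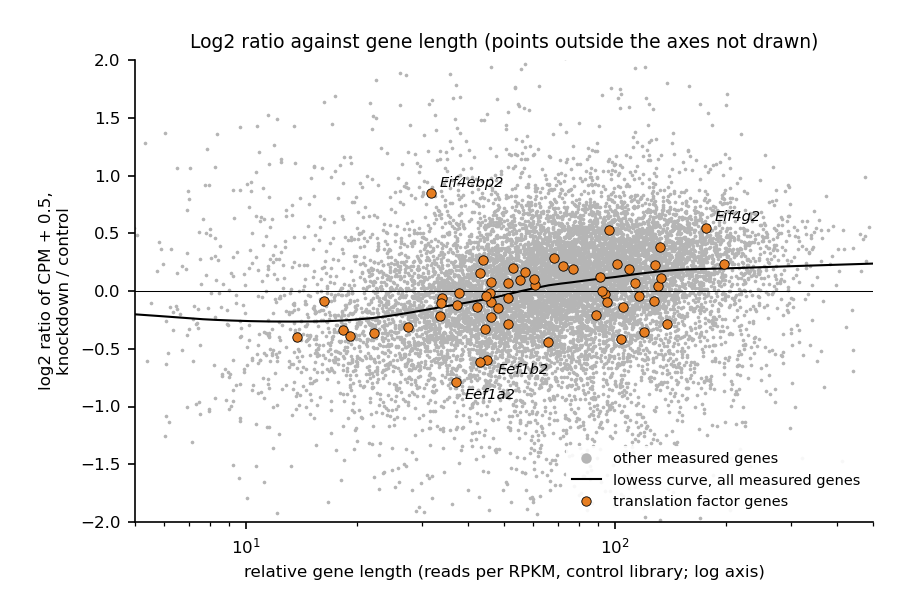
Log2 ratio of CPM + 0.5 (knockdown over control) against relative gene length on a log axis, for 58 translation factor genes (orange) and other measured genes (grey), with the lowess curve over all measured genes in black. The short translation factor genes lie mostly below 0 with the curve, and Eif4ebp2 lies well above it.

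Several translation factor mRNAs are known to begin with a terminal oligopyrimidine (TOP) tract, a C followed by pyrimidines at the very start, through which mTORC1 controls their translation. The 10 known TOP genes of the family had a median log2 ratio of -0.19, and only Eef1b2 was past 1.5-fold. Below 0 were 6 of the 10, beside 46.9% of all measured genes. RefSeq promoter sequences (GRCm38.p6) were at hand for 47 of the 60 genes. A C followed by 4 letters that are each C or T (16 spellings, CTTCC and CTCTC among them, read on the gene's own strand) began within 5 bases of the annotated start in 12 of the 47, or 25.5%, against 23.9% of the 8860 measured genes with an entry and 21.2% of all 27025 genes with one. The 12 had a median log2 ratio of 0.18 and the other 35 one of -0.03. These medians do not compare TOP genes with others, because most known TOP genes with an entry lacked the letters. Of the 6 known TOP genes with an entry, 2 held them, Eef1a1 and Eif3f. These 6 are printed over 30 bases, 15 before and 15 from the annotated start on, with letters matching the search in capitals. They are from chr9:78481710-78481739 (minus strand), chr7:108934400-108934429, chr10:81176616-81176645, chr1:63176816-63176845, chr19:60790679-60790708 (minus strand) and chr15:102073758-102073787, in the order printed.
Eef1a1: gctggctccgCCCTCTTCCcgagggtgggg
Eif3f: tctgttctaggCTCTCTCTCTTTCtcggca
Eef2: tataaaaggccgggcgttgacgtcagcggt
Eef1b2: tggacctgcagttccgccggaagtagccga
Eif3a: cggggctcgggcggcggcgctgccgccgcg
Eif4b: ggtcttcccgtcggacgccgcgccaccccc
A match says only that these letters are in the window searched, and not that they are the TOP tract of the mRNA. A missing match says only that these letters are not in the window searched.

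Other genes of translation and its control were also close to even, with 0 measured genes of the lists below past 2-fold. Over all measured genes, 2.13% were at least 2-fold higher and 4.51% at least 2-fold lower. Signalling to the cap, the mTORC1 list, had 14 of 19 measured genes above 0, beside 53.1% of all measured genes. Its median was 0.20, which was 0.09 with library totals. Within it the kinase gene Rps6kb2 had 490 reads in the knockdown and 840 in the control library, a log2 ratio of -0.58, while Rptor, which encodes the Raptor scaffold of mTORC1, had 0.48 and Rps6kb1 0.37. Downstream of the eIF2 kinases, 7 measured genes of the integrated stress response had a median of 0.25. Past 1.5-fold higher was 1 of them, beside 9.13% of all measured genes. The median was 0.15 with library totals and 0.09 with a minimum of 20 CPM. That gene, Ppp1r15a, encodes the phosphatase subunit GADD34 that reverses eIF2 phosphorylation, and had 361 reads in the knockdown and 258 in the control library. Ddit3, which encodes the stress factor CHOP, had a log2 ratio of -0.48, and Atf4, the transcription factor translated when eIF2 is phosphorylated, had 0.33. Under 5 CPM on average, and so not among the measured genes, were Atf3 and Chac1, both past 2-fold. Atf3 had 105 reads in the knockdown and 29 in the control library, a ratio of 4.12 (2.71 to 6.45). Chac1 had 17 and 60, 3.10-fold lower (1.79 to 5.67). Transcript levels do not report phosphorylation of eIF2 or of the eIF4E-binding proteins.

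Termination and recycling genes went both ways, with 4 of 9 above 0 and a median of -0.24 that was 0.23 with a minimum of 20 CPM and 0.0046 with the length correction. Gspt1, the GTPase release factor, had 2663 reads in the knockdown and 2072 in the control library, a log2 ratio of 0.55, and Pelo and Denr, of ribosome rescue and recycling, had -0.45 and -0.40. Poly(A)-binding protein genes and their partners had 4 of 5 above 0, beside 53.1% of all measured genes. Pabpc1 was at 0.11, its activator Paip1 at 0.40 and its inhibitor Paip2 at -0.31. Rps6, a ribosomal protein gene of the mTORC1 list that most cells express highly, had only 115 reads in the knockdown and 123 in the control library, or 4.31 and 4.36 RPKM. The cause of this low count was not tested.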

How the data were processed

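The deposited table gives, per the file headers, raw read counts and RPKM (reads scaled for gene length and library size) for 1 knockdown and 1 control library, with the authors' log2 fold change, log2 average CPM, p-value and FDR. HTSeq 0.6.0, TopHat2 2.0.12 and Bowtie 1.0.1 were used, per the submitters' processing notes, which do not say for what. Genome build, annotation, strand setting and the test behind the deposited p-values: not given in the sources used here.

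TMM factors from edgeR 4.0.16 scaled the counts (0.963 for the knockdown and 1.04 for the control library). The log2 ratio was taken on CPM plus 0.5. Measured genes had a mean of at least 5 CPM. No p-value was computed. Intervals are exact Clopper-Pearson from the split of reads, and for paralog pairs exact conditional odds ratio intervals (scipy 1.17.1). Relative length is reads per RPKM, and the length correction subtracts a lowess curve (span 0.3, statsmodels 0.14.6). The calculation was tested on data simulated with counting error only. That test covers neither spread between embryos or sorts nor a trend with length. Alternatives were 3 scalings, 2 pseudocounts, 3 CPM minimums, the authors' log2 fold change and the length correction.

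The members, roles and lists were chosen with earlier results of these data known. Genes given in full were those past 2-fold, the 8 highest and 8 lowest, the most abundant of each role by mean RPKM, both genes of each pair and up to 3 per pathway list with the largest ratios. Others are named by roles or ranges. Oasl2, Irf7, Mrc1, Ptprc, Rps6, Atf3, Chac1, Pabpc1, Dhps and Dohh were named after their values were seen. Positions are from GENCODE M21 (GRCm38), looked up by gene ID, with a match for 15459 IDs of the table.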

Additional observations from a re-analysis of the deposited data

How the results depend on the processing

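No paired analysis was possible because each group has 1 library, and no replicate could be left out. The median log2 ratio of translation factor genes, -0.04 with TMM factors, was -0.15 with library totals and -0.13 with upper-quartile factors. The medians of all measured genes were then -0.07 and -0.06. Below 0 were 33 of 58 translation factor genes with TMM factors, 41 with library totals and 40 with upper-quartile factors. The counts past 2-fold and 1.5-fold kept within 1.5 times or within counting error under the alternatives, with these exceptions. With no CPM minimum or a minimum of 1 CPM, 2 genes were past 2-fold lower and 5 past 1.5-fold lower, because Eif4ebp1 and Eif4a-ps4 then enter. With the length correction, 1 gene (Eif4ebp2) was past 2-fold higher and 1 (Eef1a2) past 1.5-fold lower.

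Library totals shifted the median of all measured genes by -0.11 and upper-quartile factors by -0.09, and list medians moved with them. With library totals the medians were -0.17 for start codon selection, 0.0629 for eIF4F, -0.13 for eIF4A3, 0.35 for eIF4E-binding proteins, -0.32 for subunit joining, -0.44 for eEF1, -0.11 for eEF2 and its kinase, 0.0170 for poly(A)-binding proteins and -0.0954 for aminoacyl-tRNA synthetases. With upper-quartile factors they were -0.15 for start codon selection, 0.0771 for eIF4F, -0.11 for eIF4A3, -0.31 for subunit joining, -0.43 for eEF1, -0.0925 for eEF2 and its kinase and 0.0311 for poly(A)-binding proteins. With the length correction they were 0.0729 for start codon selection, 0.0497 for eIF4F, 0.0935 for eIF4A3 and -0.0790 for eEF2 and its kinase. The eIF4E-binding protein median was 0.0698 with no CPM minimum or 1 CPM, and that of termination factors 0.23 with a minimum of 20 CPM. That minimum leaves out Gspt2, Mcts2 and Pelo, whose log2 ratios were -0.24, -0.26 and -0.45, so the termination list changed in its members. The 13 paralog balances were the same from deposited RPKM, but they had to be, because gene length and library size cancel in the quotient. That sameness is no check. Depth limits the scarce genes most: Eif4ebp1 (29 and 90 reads in the knockdown and control libraries), Eif4a-ps4 and Eif3j2 carry the widest intervals.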

Other observations

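Translation in mitochondria and the supply of charged tRNA are not covered by the factors above. The 10 mitochondrial translation factor genes had a median log2 ratio of -0.01, which was -0.12 with library totals. Of these, 5 were above and 5 below 0 with 0 past 1.5-fold, and they ran from -0.22 (Mtif3) to 0.28 (Mtrf1l). The 22 genes of cytosolic aminoacyl-tRNA synthetases and their scaffold had a median of 0.01. Past 1.5-fold was 1 of the 22, Vars, beside 9.13% of all measured genes at least 1.5-fold higher and 12.4% at least 1.5-fold lower. Vars encodes valyl-tRNA synthetase, which works beside eEF1B in the same complex. It had 4092 reads in the knockdown and 2858 in the control library, a ratio of 1.63 (1.55 to 1.71). Iars and Mars followed, with log2 ratios of 0.51 and 0.39.

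Enzymes that modify eIF5A and eEF2 had a median of -0.03 over 9 genes, which was -0.13 with library totals. Dph1, of the diphthamide pathway that marks eEF2, had 181 reads in the knockdown and 111 in the control library, a ratio of 1.86 (1.46 to 2.37). Dhps and Dohh, which make hypusine on eIF5A, had log2 ratios of -0.09 and 0.02.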
